A study of Rattus norvegicus with 48 samples.

Results

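Ribosomal protein genes were followed in rat kidney through an induction course with indole-3-carbinol. The members were all probe sets of the array whose annotation gave 1 gene symbol of the Rpl, Rps, Mrpl or Mrps families. Probe sets with several symbols, symbols marked as pseudogenes and the Rps6k kinases were left out. The rule gave 24 genes, each with 1 probe set, of 8797 probe sets in all, of which 7603 carried 1 symbol. The cytosolic ribosome was represented by 11 genes, 2 of the small subunit (Rps6 and Rps9) and 9 of the large subunit (Rpl3, Rpl4, Rpl13a, Rpl14, Rpl15, Rpl18, Rpl23, Rpl37a and Rplp0). The mitochondrial ribosome was represented by 13 genes, 5 named for the small subunit (Mrps10, Mrps15, Mrps18a, Mrps18b and Mrps26) and 8 named for the large subunit (Mrpl13, Mrpl16, Mrpl17, Mrpl23, Mrpl34, Mrpl37, Mrpl38 and Mrpl46). Both sets are a minority of each ribosome's proteins, so statements below concern the measured genes.

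The samples were kidneys of male rats aged 12 weeks from the strains that the labels call F, L, FL and LF. The labels used here do not spell out these letters or any transgene. Rats received indole-3-carbinol, a plant indole that activates the aryl hydrocarbon receptor, by gavage for 7 or 10 days at a daily dose of 100 mg per kg, and controls (day 0) received vegetable oil. There were 8 rats in each of the 12 groups and 4 arrays per group, 48 arrays in all, described as biological replicates. Whether an array held RNA of 1 rat or a pool was not given in the sources used here. All values are log2 signals, so a difference of 1 is a doubling. Probe sets were ranked by mean signal, but signals of different probe sets were not compared as amounts of RNA.

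Cytosolic ribosomes translate the messages of nuclear genes, and their proteins are made in step with each other because most of their mRNAs begin with a pyrimidine tract that places translation under control of the mTOR kinase. Mitochondrial ribosomes are built from nuclear-encoded proteins that are imported, and they translate the few mitochondrial messages for the respiratory chain. The kidney tubule, above all the proximal tubule, depends on respiration for its transport work and is rich in mitochondria.

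Runs of pyrimidines lay near the annotated starts of most of these cytosolic genes. RefSeq promoters on build GRCr8 were matched for 20 of the 24 genes. The windows below show 15 bases on each side of the start, 5′ to 3′ on the gene's strand. They are shown for the cytosolic genes on which the results turn and for Rpl3, the exception. Capitals mark the longest unbroken run of C and T that reached into the 20 bases on either side of the start, where that run had at least 7 bases.
Rpl13a, chr1:104748899-104748928, minus strand: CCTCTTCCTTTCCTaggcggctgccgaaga
Rplp0, chr12:46718376-46718405, minus strand: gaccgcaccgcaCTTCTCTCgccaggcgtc
Rpl23, chr10:83272170-83272199, minus strand: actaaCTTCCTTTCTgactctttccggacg
Rps9, chr1:74430423-74430452, minus strand: tccggcggccacgTTTCTCTTTgtcacggg
Rpl3, chr7:113507976-113508005, minus strand: ccagcgcctgctcgatctctatcggcggcg
Such a run was present in 9 of the 10 matched cytosolic genes (90%) and in 3 of the 10 matched mitochondrial genes (30%). The share was 30.1% of all 33469 RefSeq promoters and 27.5% of the 6222 promoters of genes on the array. Runs lying wholly within 20 bases of the start were present in 8 of 10 and 2 of 10, beside 21.4% of all promoters, since those of Rps6 and Mrpl37 lay mostly further upstream. A run that held the annotated first base itself was present in 5 of 10 cytosolic and 1 of 10 mitochondrial genes, beside 6.01%. Rpl13a carried a run of 14 bases that ended before its annotated first base, as did the run of Rpl23, and the longest run in Rpl3 was 5 bases. Where transcription starts in these kidneys was not measured.

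Sequences of another kind were sought in the promoters of the 10 matched mitochondrial genes. The windows of the genes that differed between strains are shown with 2 others, and each window shown holds a match. Here capitals mark CCGGAAG (a binding sequence of ETS and GABP factors), AAGATGG (the YY1 core) or part of the NRF-1 palindrome, sought on both strands of the 300-base promoters.
Mrps10, chr9:21122439-21122468, minus strand: ggcacggctgtgatcCCGGAAGcgatcgtg
Mrps18a, chr9:22367366-22367395, minus strand: gtcaggtgtgttcccAAGATGGcggccctc
Mrpl37, chr5:127074953-127074982, minus strand: ccagcaggccctgcccgggcaAAGATGGcg
Mrps18b, chr20:2842991-2843020, plus strand: TGCGCagtcgttCTTCCGGcaggccgtacg
CCGGAAG was found in 5 of 10 mitochondrial and 1 of 10 cytosolic promoters, beside 8.75% of all promoters. AAGATGG was found in 5 of 10 and 1 of 10 (Rpl13a), beside 7.01%. The NRF-1 palindrome was found in 2 of 10 and 0 of 10, beside 0.852%. In Mrps18b the window starts inside a copy of this palindrome, and CTTCCGG is CCGGAAG read on the other strand. The promoters of Mrpl34 and Mrps15 held no match to any of the sequences sought. A match describes these letters and is not a measured binding site.

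The first comparison asked which ribosomal protein genes changed after 7 days of indole-3-carbinol. Rpl13a fell, and no other member passed the test. By mean signal (6.13) the Rpl13a probe set lay at the 53rd percentile of all probe sets. The cytosolic members ranged from the 11th percentile (Rpl4) to the 100th (Rplp0). Rpl13a encodes a large-subunit protein that can leave the ribosome after interferon-gamma stimulation to silence inflammatory messages as part of the GAIT complex, and it is widely used as a reference gene. Across the 16 arrays of each day, its log2 signal ranged from 5.41 to 7.00 at day 0 (median 6.50), from 5.06 to 6.46 at day 7 (median 5.76) and from 5.62 to 6.65 at day 10 (median 6.12).

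In strain F the Rpl13a signals of the 4 replicates were 7.00, 6.63, 6.50 and 6.47 at day 0, 6.12, 6.13, 5.60 and 5.88 at day 7, and 5.86, 6.65, 5.81 and 6.05 at day 10. In strain L they were 6.74, 6.45, 6.76 and 6.09, then 5.54, 5.51, 5.70 and 5.98, then 5.94, 5.91, 6.34 and 6.46. Every day 7 array of these 2 strains lay below every day 0 array of the same strain. In FL the signals were 6.59, 6.50, 5.41 and 6.40, then 5.77, 6.46, 5.57 and 5.06, then 6.45, 6.39, 6.12 and 5.62. In LF they were 6.32, 6.64, 6.60 and 6.08, then 6.15, 5.74, 5.83 and 5.49, then 6.41, 6.0, 6.53 and 6.11. Day 0 and day 7 overlapped in both FL, where replicate 3 of day 0 was low, and LF.

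**Figure D1:**
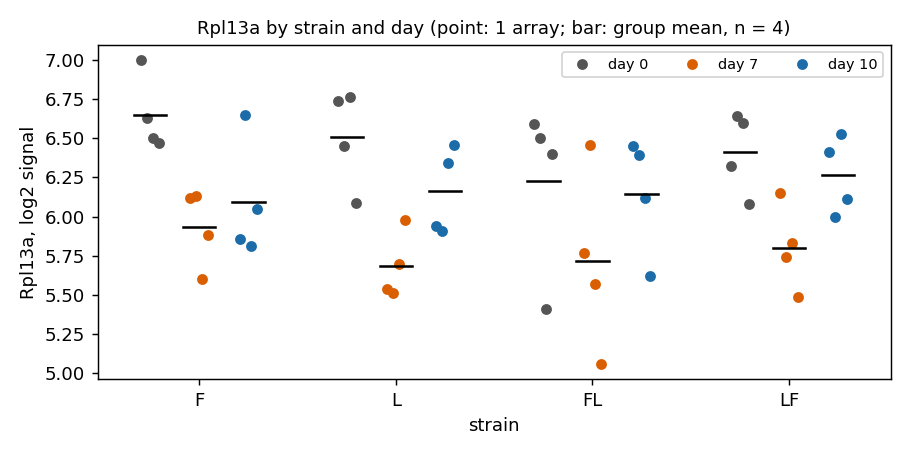
Log2 signal of Rpl13a on each of the 48 arrays, by strain (horizontal axis) and day (colour). Points are arrays and bars are group means (n = 4). The day 7 means of 5.93, 5.68, 5.72 and 5.80 in F, L, FL and LF each lie below the day 0 means of 6.65, 6.51, 6.23 and 6.41 of the same strain.

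Averaged over the strains, Rpl13a was lower at day 7 by a log2 difference of −0.67 ± 0.12 (SE, 16 arrays a day, 95% interval −0.91 to −0.42), or 0.630-fold, with an adjusted p of 3.96e-04 (limma over all 8797 probe sets, Benjamini-Hochberg, threshold 0.05). In this comparison 4.94% of all probe sets were called, 3.75% lower and 1.19% higher, so 1 call among 24 genes is a share near the background. The array names in the labels place replicates of the same number in the same array run, which allows the change to be read within runs. The mean difference of the strains was −0.77, −0.60, −0.64 and −0.66 in runs 1 to 4. Rpl13a was lower in 15 of 16 pairs of the same strain and run, and the exception was replicate 3 of FL. In kidney tissue, fewer cells of a type and less RNA per cell cannot be told apart. Among the marker lists, 7 of 10 collecting duct genes, 5 of 9 genes of the loop of Henle and distal tubule and 2 of 12 proximal tubule genes were also called lower at day 7. So were 2 of 4 endothelial, 3 of 14 leukocyte and 1 of 5 podocyte genes, and 0 of 4 genes of red cell precursors and platelets. No gene of these lists was called higher. Their part in the Rpl13a result was not tested.

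At day 10 no member passed the test, and neither did any in the direct comparison of day 10 with day 7. Rpl13a stood at −0.28 ± 0.12 against day 0 (adjusted p = 0.349, limma) and at 0.38 ± 0.12 against day 7 (adjusted p = 0.259). The share of all probe sets called was 2.41% for day 10 against day 0 and 0.114% for day 10 against day 7. At an unadjusted p under 0.05 there were 2 members in each comparison, Rpl13a and Rpl23 against day 0 and Rpl13a and Mrps15 against day 7, beside 9.44% and 13.6% of all probe sets.

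The other 8 large-subunit genes of the cytosolic ribosome did not pass the test on any day. Rpl23, a core protein at the face toward the small subunit, ranged from 11.39 to 11.89 at day 0 (median 11.57), from 11.05 to 11.94 at day 7 (median 11.68) and from 11.38 to 12.00 at day 10 (median 11.76). Its difference from day 0 was 0.13 ± 0.064 at day 7 (adjusted p = 0.259) and 0.18 ± 0.064 at day 10 (adjusted p = 0.198). At day 7 it was lower in 2 of 16 pairs of the same strain and run. The Rpl23 means stood above control on both days without passing the test.

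Rpl3, which reaches toward the peptidyl transferase centre, had the widest spread between replicates of all members (SD within groups 0.58). Its signals ran from 6.27 to 8.54 at day 0, from 5.58 to 7.57 at day 7 and from 5.98 to 7.93 at day 10. Its day 7 difference of −0.34 ± 0.20 (95% interval −0.73 to 0.055) had an adjusted p of 0.321. Rplp0, the base of the stalk that recruits the elongation factors, had the narrowest replicate spread of the cytosolic members (SD within groups 0.17). It ranged from 11.66 to 12.20 at day 0, 11.55 to 12.19 at day 7 and 11.62 to 12.28 at day 10, and its differences were −0.0013 ± 0.060 and 0.069 ± 0.060.

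Rpl14 and Rpl18 differed from day 0 by −0.17 ± 0.11 and −0.084 ± 0.10 at day 7, and by −0.016 ± 0.11 and −0.011 ± 0.10 at day 10. Rpl15 and Rpl37a differed by 0.086 ± 0.14 and −0.079 ± 0.12 at day 7, and by −0.026 ± 0.14 and 0.093 ± 0.12 at day 10. These 4 genes encode structural proteins of the large subunit. Rpl4, which lines the exit tunnel, had a dim probe set at the 11th percentile of all probe sets (mean signal 2.54) and was the 1 member among the dimmest 25%. Its differences of 0.089 ± 0.12 and 0.093 ± 0.12 say little about this gene.

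The 2 small-subunit genes also stayed below the threshold. Rps6, the substrate of S6 kinase downstream of mTOR, ranged from 5.21 to 6.23 at day 0 (median 5.45), from 4.96 to 6.90 at day 7 (median 5.69) and from 4.39 to 6.69 at day 10 (median 5.98). Its differences were 0.21 ± 0.15 at day 7 (adjusted p = 0.444) and 0.24 ± 0.15 at day 10 (adjusted p = 0.748), with all 3 days overlapping. Rps9, which shapes the mRNA entry channel, differed by 0.12 ± 0.17 and −0.11 ± 0.17. Many processed copies of cytosolic ribosomal protein genes lie in rodent genomes, and whether a probe set also read such a copy was not tested.

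**Figure D2:**
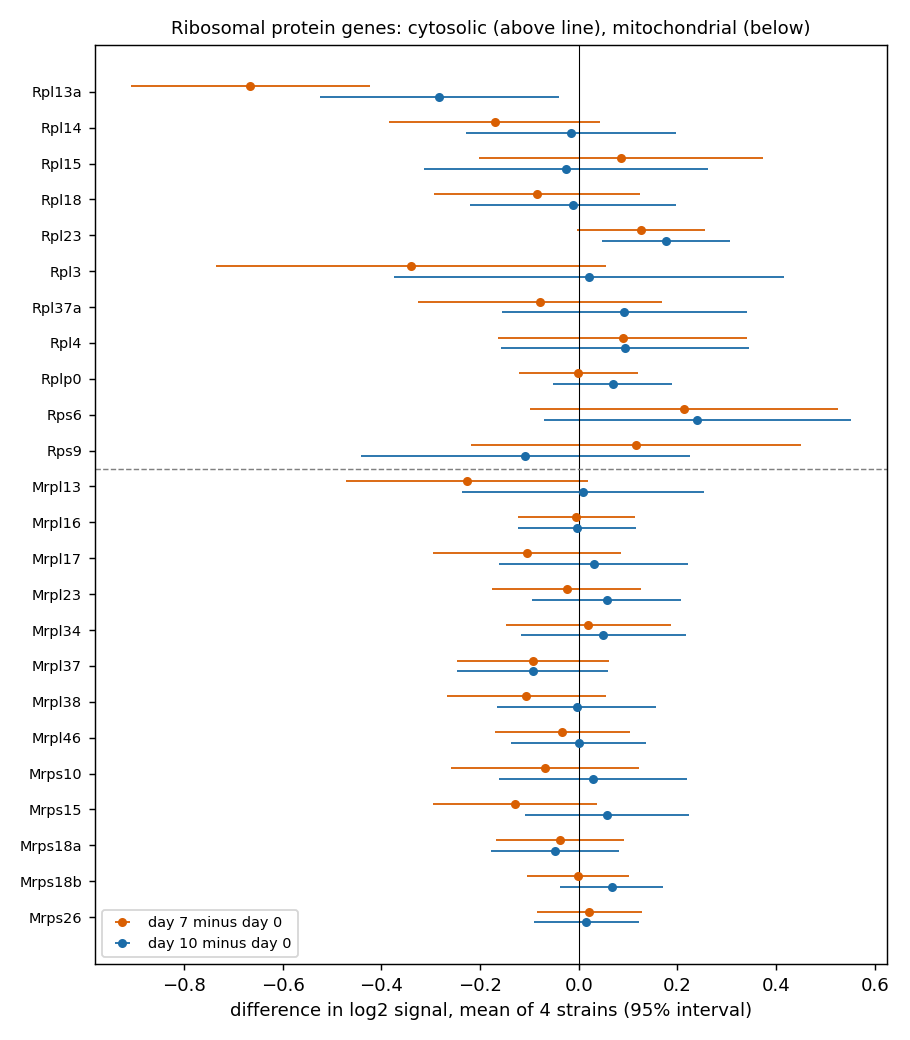
Difference in log2 signal from day 0 for each of the 24 genes at day 7 (orange) and day 10 (blue), averaged over the 4 strains, with 95% intervals. Rpl13a at day 7 (−0.67) stands apart, and the mitochondrial genes below the dashed line lie between −0.23 and 0.067.

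The mitochondrial ribosomal protein genes showed no called change with day. Mrpl13 had the lowest day 7 value, −0.23 ± 0.12 (95% interval −0.47 to 0.020, adjusted p = 0.286). It is the mitochondrial counterpart of Rpl13a, as both proteins belong to the L13 family. Mrpl13 ranged from 6.39 to 7.47 at day 0, from 5.87 to 7.09 at day 7 and from 5.96 to 7.63 at day 10, and at day 10 it differed from control by 0.0081 ± 0.12. It was lower in 12 of 16 pairs of the same strain and run at day 7.

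Among the other large-subunit genes with bacterial relatives, Mrpl16, Mrpl17, Mrpl23 and Mrpl34 differed at day 7 by −0.0050 ± 0.059, −0.10 ± 0.094, −0.024 ± 0.074 and 0.019 ± 0.082. At day 10 they differed by −0.0038 ± 0.059, 0.030 ± 0.094, 0.056 ± 0.074 and 0.050 ± 0.082. Mrpl37, Mrpl38 and Mrpl46, which were added to the ribosome in the mitochondrial lineage, differed at day 7 by −0.093 ± 0.076, −0.11 ± 0.080 and −0.034 ± 0.068. At day 10 Mrpl37 stood at −0.094 ± 0.076 (adjusted p = 0.866), Mrpl38 at −0.0044 ± 0.080 and Mrpl46 at 0 ± 0.068.

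Of the genes named for the small subunit, Mrps15 had the lowest day 7 value, −0.13 ± 0.082 (adjusted p = 0.374), and the day 10 value closest to a call against day 7, 0.19 ± 0.082 (adjusted p = 0.339). Mrps10 differed by −0.068 ± 0.094 at day 7 and 0.029 ± 0.094 at day 10. Mrps26, specific to mitochondria, differed by 0.021 ± 0.053 and 0.015 ± 0.053. Mrps18a and Mrps18b are relatives of the same bacterial protein, S18, and structures place the Mrps18a protein in the large subunit despite its name. They differed by −0.038 ± 0.064 and −0.0019 ± 0.051 at day 7, and by −0.049 ± 0.064 and 0.067 ± 0.051 at day 10.

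The intervals show how large a change these arrays leave possible. For all 13 mitochondrial genes the 95% interval lay within 0.5 log2 units of no change on both days, and within 0.25 for 8 genes at day 7 and 12 genes at day 10. For the 11 cytosolic genes, 8 intervals at day 7 and 9 at day 10 lay within 0.5, and 1 and 3 within 0.25. The signs at day 7 were 5 higher and 6 lower among cytosolic genes (median −0.0013) and 2 higher and 11 lower among mitochondrial genes (median −0.038), beside a median of −0.029 over all probe sets. The spread of the log2 signals over all probe sets of an array was also lower at day 7 (mean 2.41) than at day 0 (2.45). Its part in these signs was not tested. At day 10 the medians were 0.021 and 0.015, beside −0.0031.

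Within single strains no ribosomal protein gene was called at day 7 or day 10 (limma, 4 arrays a group). The share of all probe sets called at day 7 and day 10 was 0.671% and 0.239% in F, 0.0114% and 0.0114% in L, 0.159% and 0.0909% in FL, and 2.26% and 0.887% in LF. Rpl13a had the smallest p among cytosolic genes at day 7 in every strain, with differences of −0.72 ± 0.24 in F (adjusted p = 0.272), −0.83 ± 0.24 in L (adjusted p = 0.585), −0.51 ± 0.24 in FL (adjusted p = 0.777) and −0.61 ± 0.24 in LF (adjusted p = 0.162). These strain values are parts of the averaged change above and not separate evidence. At day 10 Rpl13a in F was still at −0.56 ± 0.24 (adjusted p = 0.456), and in L at −0.35 ± 0.24 (adjusted p = 0.999).

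LF kidneys at day 7 had the most members at an unadjusted p under 0.05, with 6 lower and 0 higher, beside 19.0% of all probe sets. In F, L and FL the count at day 7 was 1, 1 and 2, beside 6.92%, 4.01% and 6.21% of all probe sets. At day 10 it was 2 in F and 0 in L, FL and LF, beside 9.36%, 4.30%, 4.24% and 6.60%. The 6 genes were Rpl13a, Rpl18 (−0.47 ± 0.21), Rpl3 (−0.85 ± 0.39), Mrpl17 (−0.38 ± 0.19), Mrps10 (−0.45 ± 0.19) and Mrps15 (−0.37 ± 0.16). Rpl3 in LF read 7.62, 8.54, 7.04 and 7.00 at day 0 and 6.96, 6.95, 6.24 and 6.65 at day 7, so that all day 7 arrays lay below all day 0 arrays. At day 10 it read 7.85, 7.93, 7.31 and 7.45. The spread of the log2 signals over all probe sets of an array, which moved with the members' signals as described below, was also lower in LF at day 7 (mean 2.40) than at day 0 (2.47), and its part in these values was not tested. The moderated F test of strain by day called no member, beside 0.193% of all probe sets, and no member had an unadjusted p under 0.05, beside 6.23% (Rpl13a adjusted p = 0.978, Mrps10 adjusted p = 0.947, limma). No day response of a ribosomal protein gene was therefore shown to differ between strains.

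**Figure D3:**
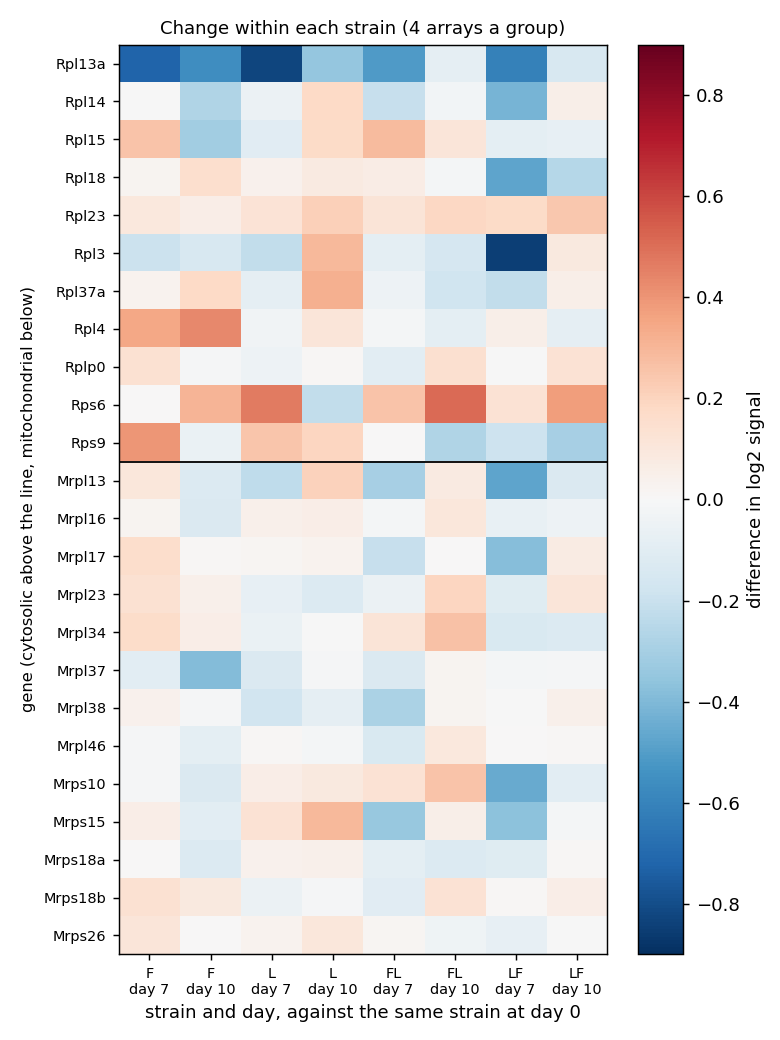
Difference in log2 signal from day 0 within each strain (columns) for each gene (vertical axis), with blue for lower and red for higher. Rpl13a is blue in all 4 day 7 columns (−0.51 to −0.83), and the deepest blue is Rpl3 in LF at day 7 (−0.85).

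The second question was whether the strains differ in these genes. Mrps10 and Mrps18a were called by the moderated F test of strain over the mean of the days, beside 12.9% of all probe sets. Both lie on rat chromosome 9. No cytosolic gene was called. At an unadjusted p under 0.05 there were 5 members (Mrps10, Mrps18a, Rplp0, Mrps15 and Mrps18b), beside 24.3% of all probe sets.

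Mrps10, a small-subunit protein of the decoding head, gave a low signal in F and FL and a high signal in L and LF. Over the 12 arrays of each strain its log2 signal was 6.94 ± 0.23 in F (SD, range 6.63 to 7.26), 6.84 ± 0.37 in FL (6.26 to 7.41), 7.50 ± 0.23 in L (7.08 to 7.85) and 7.56 ± 0.24 in LF (7.22 to 7.91). Its strain test gave F = 23.6 and an adjusted p of 4.27e-07 (limma). In each of the 4 array runs the means of L and LF were both above those of F and FL. In run 3 they were 7.67 and 7.60 against 6.79 and 6.49, and in run 2, where they were closest, 7.38 and 7.55 against 7.10 and 7.06. Whether the Mrps10 probes read all strains equally well was not tested.

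At day 0 the Mrps10 signals were 6.87, 7.26, 6.83 and 7.00 in F and 7.17, 6.70, 6.40 and 6.59 in FL. They were 7.60, 7.40, 7.56 and 7.26 in L and 7.91, 7.84, 7.60 and 7.64 in LF. All LF arrays lay above all F and FL arrays, and L met F at 7.26. FL was lower than LF by a log2 difference of −1.03 ± 0.19, or 0.489-fold (adjusted p = 3.73e-04, 3.07% of all probe sets called). FL was lower than L by −0.74 ± 0.19 (adjusted p = 0.0262, 1.59% called), and LF was higher than F by 0.76 ± 0.19, or 1.69-fold (adjusted p = 0.0175, 2.11% called).

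The remaining day 0 pairs were not called for Mrps10. F differed from L by −0.47 ± 0.19 (adjusted p = 0.372, 1.55% called), FL from F by −0.28 ± 0.19 (adjusted p = 0.995, 0.0682% called) and LF from L by 0.29 ± 0.19 (adjusted p = 0.998, 0.193% called). Mrps10 was the single member called in any of the 6 pairs. In FL against LF, Mrpl38 was called as well, higher in FL, when array spread was a covariate (0.41, adjusted p = 0.00997) or after a second quantile normalization (0.35, adjusted p = 0.0202).

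The calls of the smaller day 0 differences rested on few arrays. FL against L lost its call in 8 of 52 fits that left out 1 replicate number or 1 array, namely replicate 2, replicate 3, FL day 0 replicates 2, 3 and 4, and L day 0 replicates 1, 2 and 3, with differences of −0.76 to −0.60 and adjusted p-values up to 0.394. LF against F lost it in 7, namely replicates 1, 2 and 3, LF day 0 replicates 1 and 2, and F day 0 replicates 1 and 3, with differences of 0.66 to 0.82 and adjusted p-values up to 0.170. FL against LF was called in all 52.

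In the induced animals, Mrps10 read 7.24, 7.20, 6.85 and 6.63 in F at day 7 and 7.21, 6.84, 6.68 and 6.70 at day 10. FL read 7.15, 7.07, 6.26 and 6.89, then 7.22, 7.41, 6.82 and 6.43. L read 7.71, 7.35, 7.59 and 7.42, then 7.84, 7.40, 7.85 and 7.08. LF read 7.26, 7.38, 7.32 and 7.22, then 7.72, 7.44, 7.88 and 7.57. The 4 LF arrays of day 7 lay below the 4 of day 0, with a difference of −0.45 ± 0.19 that did not pass the test (adjusted p = 0.183).

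**Figure D4:**
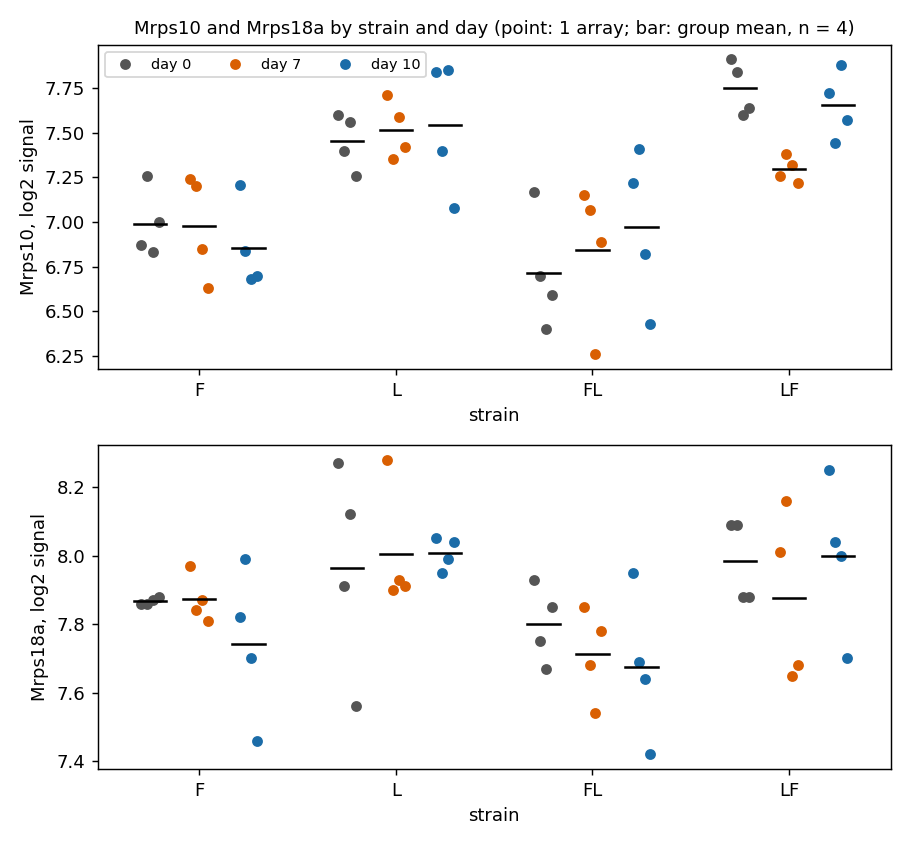
Log2 signal of Mrps10 (top) and Mrps18a (bottom) on each array, by strain (horizontal axis) and day (colour), with bars for group means (n = 4). For Mrps10 the strain means are 6.94 in F and 6.84 in FL against 7.50 in L and 7.56 in LF. The ranges of the strains overlap for both genes.

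Mrps18a ordered the strains in a similar way, with a smaller range. Its means over 12 arrays were 7.83 ± 0.14 in F (SD, range 7.46 to 7.99), 7.73 ± 0.16 in FL (7.42 to 7.95), 7.99 ± 0.19 in L (7.56 to 8.28) and 7.95 ± 0.20 in LF (7.65 to 8.25), and all 4 ranges overlapped. The strain test gave F = 5.26 and an adjusted p of 0.0339. FL was the lowest strain in runs 2, 3 and 4, at 7.71, 7.62 and 7.68, and F was lowest in run 1, at 7.88. The call was lost when array spread was a covariate (adjusted p = 0.131) and after a second quantile normalization (adjusted p = 0.0911). It was also lost in 11 of the 52 fits that left out arrays, namely replicates 1, 2 and 3, FL day 0 replicates 2 and 3, FL day 7 replicate 3, FL day 10 replicates 3 and 4, L day 0 replicates 1 and 3, and L day 7 replicate 1, with adjusted p-values up to 0.325.

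With array run as a block, the strain test called 5 members, beside 19.6% of all probe sets. These were Mrps10 (adjusted p = 1.28e-08), Mrps18a (0.0026), Rplp0 (0.00639), Mrps15 (0.0407) and Mrps18b (0.0436). Rplp0 had strain means of 11.91 in F, 11.84 in FL, 12.03 in L and 12.02 in LF. Mrps15 had means of 6.66 in F, 6.51 in FL, 6.78 in L and 6.78 in LF. Mrps18b had means of 8.31 in F, 8.21 in FL, 8.34 in L and 8.39 in LF. FL had the lowest mean for each of these 5 genes.

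The mean array spread was also lowest in FL (2.41), with 2.43 in F, 2.46 in L and 2.45 in LF (n = 12 each). The mean of the 13 mitochondrial genes was 7.38 in FL, 7.48 in F, 7.56 in L and 7.54 in LF, and that of the 11 cytosolic genes 7.46, 7.51, 7.54 and 7.59. Mrps10 kept its call with array spread as a covariate, while Mrps18a did not. Mrpl38, not called by the strain test in the main analysis (adjusted p = 0.605, limma), was called with that covariate (F = 7.39, adjusted p = 0.00474). It was also called after a second quantile normalization (F = 6.24, adjusted p = 0.0112).

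The signals of the mitochondrial members moved together from array to array, and those of the cytosolic members did so little. After the group means were removed, all 78 pairs of mitochondrial genes correlated positively over the 48 arrays (median r = 0.52, range 0.11 to 0.83). Of the 55 pairs of cytosolic genes, 32 were positive (median 0.078, range −0.53 to 0.70). These correlations are descriptions, since the points share array, run and normalization. They were not computed for pairs of other probe sets.

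Array spread followed the same pattern. All 13 mitochondrial genes correlated positively with it (median r = 0.74), as did 8 of the 11 cytosolic genes (median 0.28), while Rps9, Rpl15 and Rps6 correlated negatively. Over all probe sets the median was −0.10 for the dimmest 25%, then −0.062, 0.67 and 0.72 with rising brightness in steps of 25%. The shares correlating positively were 37.5%, 46.3%, 92.2% and 97.0%. By mean signal the mitochondrial genes lay between percentiles 61 and 87 of all probe sets, and the cytosolic genes between 11 and 100. With array spread removed as well, the median correlation between mitochondrial genes was 0.020 and that between cytosolic genes 0.0078. With array runs removed in its place they were 0.32 and 0.038. The mean of the mitochondrial genes was 7.62, 7.54, 7.46 and 7.33 in runs 1 to 4, and the array spread 2.48, 2.46, 2.43 and 2.38.

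**Figure D5:**
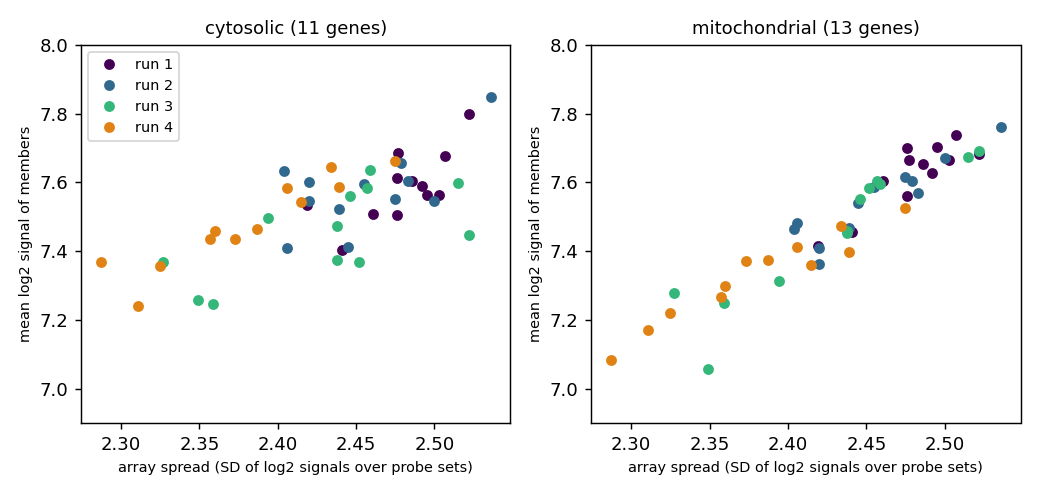
Mean log2 signal of the 11 cytosolic (left) and 13 mitochondrial (right) genes on each of the 48 arrays, against the array's spread (SD of log2 signals over all probe sets), coloured by array run. The mitochondrial mean rises along the whole range of spread, from 2.29 to 2.54, and run 4 has the lowest mean spread (2.38).

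Genes that build, feed or regulate ribosomes were read from wider lists. Over all probe sets, 20.5% had an unadjusted p under 0.05 at day 7 and 9.44% at day 10, and the unadjusted counts below are to be read against these shares. Of 110 genes of ribosome biogenesis and the nucleolus, 38 were measured, and limma called 0 at day 7 or day 10 (3 and 1 at an unadjusted p under 0.05). The smallest p-values belonged to Ddx18, a nucleolar helicase, at day 7 (−0.23 ± 0.10, adjusted p = 0.181) and Pno1, a small-subunit assembly factor, at day 10 (0.13 ± 0.062, adjusted p = 0.517). Of 57 cytosolic translation factors 23 were measured and 0 were called on either day (1 and 0 at an unadjusted p under 0.05). The elongation factor Eef2 came closest at day 7 (−0.088 ± 0.042, adjusted p = 0.235). Of 63 genes of mitochondrial translation and ribosome assembly 20 were measured and 0 were called (4 and 0 at an unadjusted p under 0.05), with Yars2, the mitochondrial tyrosyl-tRNA synthetase, closest at day 7 (−0.27 ± 0.11, adjusted p = 0.125). The median day 7 differences of these lists were −0.047, −0.081 and −0.094, beside −0.029 over all probe sets.

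Of 46 genes of mTOR, S6 kinase and Myc regulation 15 were measured (5 at day 7 and 3 at day 10 at an unadjusted p under 0.05). The share of all probe sets called at day 10 was 2.41%. Myc, the transcription factor that drives ribosome production, was the 1 gene called, higher at day 10 by 0.35 ± 0.093 (adjusted p = 0.0302), after 0.29 ± 0.093 at day 7 (adjusted p = 0.0614). Rps6kb1, which encodes S6 kinase 1, stood at −0.24 ± 0.081 at day 7 (adjusted p = 0.0736), and Tsc2, an inhibitor of mTOR signalling, at −0.13 ± 0.051 (adjusted p = 0.141). With array run as a block, Ddx18 (adjusted p = 0.0424), Yars2 (0.0321), Rps6kb1 (0.0209), Tsc2 (0.0315), Myc (0.0443) and Mcm7 (0.0151) passed the threshold at day 7, where the share of all probe sets called was 11.1%. Of 27 genes of proliferating cells 11 were measured and 0 were called on either day without the block (3 and 1 at an unadjusted p under 0.05). The 1 gene of this list called with the block at day 7 was Mcm7, a subunit of the replicative helicase, at −0.24 ± 0.084 (adjusted p = 0.0822 without the block).

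The arrays carried the profile of kidney tissue. Slc34a1, the phosphate transporter of the proximal tubule, ranged from 11.74 to 12.19 over the 48 arrays, and Umod, the uromodulin of the thick ascending limb, from 12.53 to 13.02. Replicates of a group correlated at 0.979 to 0.992 over all probe sets, array medians ran from 5.66 to 6.06, and no array repeated another's values.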

How the data were processed

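Log2 signals of 8797 probe sets on 48 arrays were deposited by the authors. Per the submitters' processing notes, RMA and limma were used, with no versions or roles given. Per the labels' protocols, ribosomal RNA was removed before sense targets were made. The deposited values (1.04 to 14.02, none missing) were used as given, with no filter on low signals. The deposited arrays do not share 1 distribution (medians 5.66 to 6.06), and values were not rescaled in the main analysis.

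Differences were tested with limma 3.58.1 in R 4.3.3 (lmFit and eBayes, 12 group means, 36 residual degrees of freedom), with Benjamini-Hochberg adjustment over all 8797 probe sets and a threshold of 0.05. There were 17 single comparisons and 2 moderated F tests of 3 and 6 degrees of freedom. The procedure was tested on simulated data with independent noise for each probe set and array. Effects of array run or array spread shared by probe sets were not simulated. Day 7 and day 10 of a strain share its day 0 arrays, and strain pairs at day 0 share arrays, so these comparisons are not independent.

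Array run was taken from the array names in the labels, and each of the 4 runs held 1 array of every group. The replicate number therefore marks a shared run. The median correlation of deviations from group means was 0.071 for arrays of the same number in other groups and −0.032 for arrays of other numbers, and 108 of 264 same-number pairs were over 0.1.

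The rule for naming took, within each ribosome, up to 8 members past the threshold per direction with the smallest p (3 for single strains and strain pairs), and where none passed, the 2 with the smallest p. It added Rplp0, Rps6, Rpl3 and Mrps18b throughout, members of extreme level or spread, and up to 4 genes per list. The other day differences are given for completeness, and Rpl3 and Mrpl17 in LF at day 7 were chosen after their values were seen. The members and the gene lists were chosen with earlier results of these data known. Named symbols were matched to RefSeq by Entrez ID for 7584 probe sets. Sequences are RefSeq promoters of build GRCr8, of which Rps9 was matched by symbol.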

Additional observations from a re-analysis of the deposited data

Results flagged for a closer look

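Outlying arrays were sought in 48 gene and group combinations of 4 arrays (Rpl13a, Mrps10, Mrps18a and Rplp0 in each of the 12 groups). The gap between the most distant array and its nearest neighbour was divided by the range of the 4 arrays. This ratio was compared with Dixon's 95% critical value. Chance passes it in about 5% of groups, and 3 passed. Rpl13a in FL at day 0 had 1 array at 5.41, with the others between 6.40 and 6.59. Without that array the day 7 decrease of Rpl13a had the lowest adjusted p of all fits that left out arrays, 2.85e-05. Mrps18a in L at day 7 had 1 array at 8.28, with the others between 7.90 and 7.93, and without it the strain test of Mrps18a had an adjusted p of 0.0595. Rplp0 in L at day 0 had 1 array at 11.79, with the others between 12.11 and 12.14.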

How the results depend on the processing

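The decrease of Rpl13a at day 7 passed the threshold under all 6 other settings, with adjusted p-values of 2.13e-05 (array weights) to 9.50e-04 (array spread as a covariate) and differences of −0.70 to −0.55. It also passed in all 52 fits that left out a replicate number or an array, at 2.85e-05 to 0.0185. The strain test of Mrps10 passed under the same 6 settings and 52 fits. With the replicate number as a block for the array run, the strain test called 1 cytosolic and 4 mitochondrial members, against 0 and 2 without it, and the block changed no other call of a member. FL against LF at day 0 called 2 members under a second quantile normalization and under the spread covariate, against 1. Leaving out arrays gave 1 to 3 mitochondrial members in the strain test, 0 to 1 in FL against L and 0 to 1 in LF against F at day 0. Among the member differences called in the main analysis, none changed sign in these fits. The signs of differences that were not called were not tracked. Averaging probe sets per gene was not run, because each member had 1 probe set. Precision was limited by 4 arrays a group, by the dim probe set of Rpl4, and by wide replicate spread for Rpl3, Rps9 and Rps6 (SD within groups 0.58, 0.49 and 0.45).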

Other observations

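Probe sets outside the rule give further values for this family. Rpl18-ps7, annotated as a pseudogene of Rpl18, was called higher at day 7 (0.51 ± 0.12, adjusted p = 0.0108, limma) at a dim mean signal of 2.33, while Rpl18 differed by −0.084 ± 0.10. None of the other probe sets left out by the rule was called at day 7, among them Rpl10;Rpl10-ps14 (0.40 ± 0.16, adjusted p = 0.136).

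Mrps10 and Mrps18a are near neighbours in the RefSeq gene order of chromosome 9, with 10 named genes between them that had a probe set. Of these, 2 passed the strain test, beside 12.9% of all probe sets. Gnmt, which methylates glycine, had higher means in F and FL (7.40 and 7.24) than in L and LF (6.96 and 6.90), with an adjusted p of 5.03e-04 (limma). Polr1c, a subunit of RNA polymerases I and III, had means of 6.64 in F, 6.48 in FL, 6.77 in L and 6.77 in LF (adjusted p = 0.00204). These genes were chosen after the strain results of Mrps10 and Mrps18a were seen.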
